A study of Saccharomyces cerevisiae with 5 samples.

Results

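Budding yeast makes GMP and AMP from a shared precursor, IMP, and can also recover purines from free bases. The 10 genes described here cover the steps from IMP to GMP (IMD2, IMD3, IMD4 and GUA1), the steps from IMP to AMP (ADE12 and ADE13), adenine and AMP deamination (AAH1 and AMD1) and base salvage (HPT1 and APT1). They were chosen by name as genes of the GTP branch and of purine interconversion and salvage, with earlier results of these data known. All 10 were measured, by 13 probe sets, among 4824 genes that passed the filter on dim signals. Each of the 13 probe sets was above the background level of 11.4 on all 5 arrays, so none of their folds is a bound.

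IMP dehydrogenase, encoded in yeast by the IMD genes, carries out the first and rate-limiting step from IMP to GMP, and GMP synthetase (Gua1) completes it. Adenylosuccinate synthetase (Ade12) and adenylosuccinate lyase (Ade13) convert IMP to AMP, and Ade13 also acts earlier, in the synthesis of IMP itself. Free bases re-enter the pool by phosphoribosyltransferases, which join a base to phosphoribosyl pyrophosphate and so release pyrophosphate. Guanine nucleotides are needed for RNA synthesis and for ribosome production. GTP is also known to repress IMD2, and the gene is induced in yeast when guanine nucleotides run short.

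Log-phase cells of the W303 background with a MYC-tagged PHO4 marked by TRP1 (PHO4-MYC::TRP1) were held for 3 h in PNB medium without phosphate, and were moved for 80 min to 0, 0.01, 0.1, 1 or 10 mM phosphate. All 5 groups shared strain, tagged allele and starvation, and each dose was 1 sample on 1 Affymetrix array, so no difference between a pair of arrays has a replicate error. W303 stocks commonly carry an ade2 mutation that blocks purine synthesis before IMP, but the labels give neither the ADE2 allele nor the purines in the medium. Signals are relative to the labelled RNA of a whole culture, so fewer cells of a kind and less RNA per cell cannot be told apart.

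The dose labels were checked with genes of the phosphate-starvation response. PHO5, a secreted acid phosphatase gene, had signals of 1418, 1222, 28.0, 22.0 and 24.4 from 0 to 10 mM. PHO84, a phosphate transporter gene, had 1370, 1157, 172, 27.8 and 27.4, so it was 6.19-fold higher at 0.1 mM than at 1 mM. PHO89, SPL2 and VTC3 were also lower at 0.1 mM and above than at 0 and 0.01 mM. The median signal of all probe sets was 25.5, 20.6, 19.7, 17.03 and 18.4 in the same order, and over all genes the median log2 difference between 10 and 0 mM was -0.26 in the deposited values. It was 0.18 with arrays scaled to 1 median, 0.09 after quantile normalization, -0.13 with equal hybridisation controls and 2.57 with equal poly-A spike-in controls, whose geometric mean at 10 mM was 10.4-fold below that at 0 mM. RNA integrity was followed by control probe sets at both ends of a transcript: the 3'/5' signal ratio for ACT1 was 2.37, 3.00, 1.11, 2.19 and 2.02 in dose order, and the one for TBP 2.63, 4.52, 2.01, 2.35 and 1.51. Both ratios were higher at 0.01 mM than at 0.1 mM, where most of the changes below lie, and their part in the results was not tested.

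The IMD genes had their higher signals at 0.1 mM phosphate and above. IMD2 had 3 probe sets. Probe set 1 gave signals of 48.0, 47.5, 257, 242 and 268 at 0, 0.01, 0.1, 1 and 10 mM. Probe set 2 gave 267, 359, 926, 944 and 1017, and probe set 3 236, 309, 985, 842 and 803. In each probe set the 3 higher doses lay above both lower doses, and the values at 10 mM were 5.58, 3.80 and 3.40-fold those at 0 mM. At 0.01 mM probe set 1 was 0.988 times its signal at 0 mM, whereas probe sets 2 and 3 were 1.34 and 1.31-fold higher. As the mean of its probe sets, IMD2 was 4.16-fold higher at 10 mM than at 0 mM, at percentile 98.3 of all genes, and 3.55-fold higher at 0.1 mM than at 0.01 mM.

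IMD3, which encodes another IMP dehydrogenase, gave 409, 364, 746, 746 and 698. Its higher doses also lay above both lower doses, and 10 mM was 1.70-fold 0 mM. All 3 IMD2 probe sets and the IMD3 probe set carry the suffix by which Affymetrix marks probe sets that match several genes of a family. The annotation gives 1 gene for each of them, and no probe set was listed with several genes that included an IMD gene. How far their signals mix IMD copies is uncertain, so the values and calls given for IMD2 and IMD3 are those of their probe sets and may not be independent.

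IMD4 had 2 probe sets without that suffix. The first gave signals of 517, 337, 841, 1139 and 1248 from 0 to 10 mM, and the second 95.3, 31.6, 402, 311 and 528. Both had their lowest value at 0.01 mM and their highest at 10 mM, but the size differed. Between 0.1 and 0.01 mM the first was 2.49-fold and the second 12.7-fold higher at 0.1 mM. The first was 2.41-fold and the second 5.54-fold higher at 10 mM than at 0 mM, or by 1.27 and 2.47 on the log2 scale. Over the 120 genes with 2 probe sets, IMD4 included, the gap between them in this difference had an SD of 0.867 (log2), and it was above 1, as in IMD4, in 23. On the mean of both, the signal of IMD4 at 0.01 mM was 2.15-fold below that at 0 mM, at percentile 4.70 of all genes, and 5.63-fold higher at 0.1 mM than at 0.01 mM, at percentile 99.6.

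IMD4 is the member that overlaps another gene in RefSeq assembly R64. This gene is SNR54, a small nucleolar RNA gene. Its probe set gave 4.39, 3.998, 22.9, 20.7 and 25.4, so it was below the background level at 0 and 0.01 mM and above it on the 3 other arrays. Whether a probe set of IMD4 also reads SNR54 was not tested.

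GUA1, for GMP synthetase, gave signals of 383, 262, 604, 709 and 783 from 0 to 10 mM. Like the mean of IMD4, it was lowest at 0.01 mM and larger at each dose above that one, and it was 2.05-fold higher at 10 mM than at 0 mM. ADE12, at the head of the AMP branch, had a profile of the other kind, with 392, 501, 249.9, 243 and 258. Its signals at the 3 higher doses lay within 1.06-fold of each other and all below those at 0 and 0.01 mM. ADE13 gave 262, 238, 116, 204 and 223. Its 3 higher doses also lay below both lower doses, but it was lowest at 0.1 mM and 1.76-fold higher at 1 mM than at 0.1 mM, so ADE12 and ADE13 shared the lower signal at 0.1 mM (2.005 and 2.05-fold lower than at 0.01 mM) but not the values above it.

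**Figure D1:**
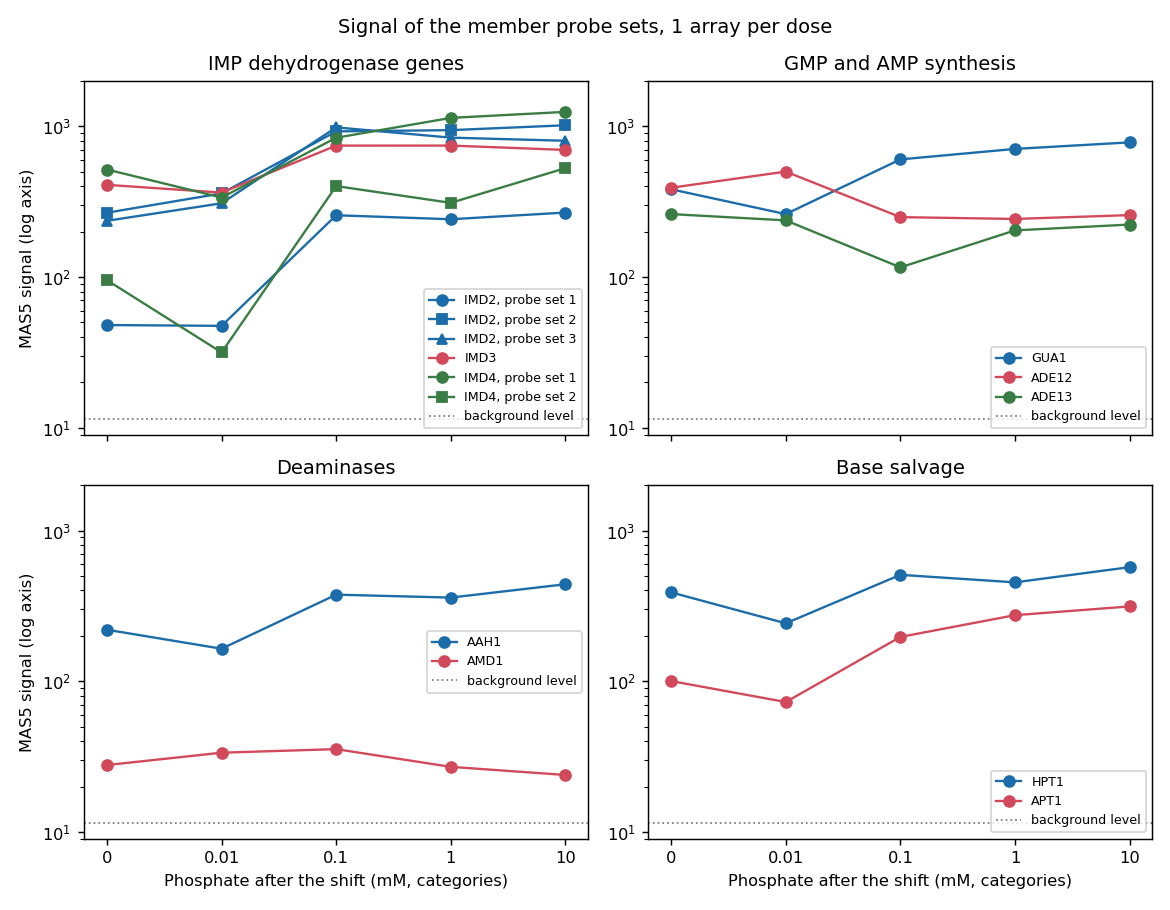
MAS5 signal (log axis) of the 13 probe sets against phosphate dose in mM as categories, 1 array per dose, in 4 panels by role, with the background level of 11.4 dotted. Heights of different probe sets cannot be compared. IMD, GUA1, AAH1, HPT1 and APT1 lines are higher from 0.1 mM on, ADE12 is lower, and AMD1 stays between 23.9 and 35.4.

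Of the deaminase genes, AAH1 gave 220, 164, 375, 359 and 440.1. It encodes adenine deaminase, which makes hypoxanthine, a base that salvage can turn to IMP. It was 2.004-fold higher at 10 mM than at 0 mM, with all 3 higher doses above both lower doses. AMD1, for AMP deaminase, which returns AMP to IMP, gave 27.8, 33.5, 35.4, 27.0 and 23.9. Their whole range was 1.48-fold, and the higher doses overlapped the lower ones.

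In base salvage, APT1, for adenine phosphoribosyltransferase, gave 100.2, 72.7, 197, 274 and 313, and its value at 10 mM was 3.13-fold that at 0 mM. It increased at each dose above 0.01 mM, including a 1.39-fold difference between 1 and 0.1 mM. HPT1, for hypoxanthine-guanine phosphoribosyltransferase, gave 389, 242, 508, 453 and 571, and 10 mM was 1.47-fold 0 mM. The higher doses lay above both lower doses in HPT1 too, with 1 mM the nearest of them to 0 mM. The ratio of APT1 to HPT1 within an array was 2.13-fold higher at 10 mM than at 0 mM. A single scaling factor for an array cancels in such a ratio, but quantile normalization does not.

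A straight line in dose order was fitted to every gene with limma, and a gene passed at a Benjamini-Hochberg adjusted p below 0.05 over all 4824 genes. Of the 10 members 2 rose along the doses, 0 fell and 8 did not pass. Over all genes 1.16% rose and 8.13% fell. IMD2 rose by 0.58 ± 0.14 (log2 per dose step, SE, 5 arrays, adjusted p = 0.0459) and APT1 by 0.52 ± 0.12 (adjusted p = 0.0448). IMD4 had a slope of 0.63 ± 0.19 (adjusted p = 0.0692), GUA1 0.35 ± 0.12 (0.0875) and AAH1 0.31 ± 0.11 (0.102), and 0 members passed as falling also at an unadjusted p below 0.05, against 6 that passed it as rising. For all genes the unadjusted shares were 23.7% falling and 8.35% rising. Both calls rest on a narrow margin: the count of members that rose was 0 without the array of 0, 0.01 or 1 mM, 1 without that of 10 mM and 3 without that of 0.1 mM. It was also 0 with arrays scaled to 1 median and after quantile normalization, settings under which 0 of the 4824 or 4825 genes passed in either direction.

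Since a line counts a step in part as error, 0.1, 1 and 10 mM were also compared with 0 and 0.01 mM. The test was limma with Benjamini-Hochberg adjustment, with the spread among different doses as the error. The place of the cut was chosen after earlier results of these data had shown most genes stepping between 0.01 and 0.1 mM. Its adjusted p-values are therefore not those of a test set in advance. In this step comparison 6 of the 10 members were higher at the higher doses, 1 was lower and 3 did not pass. Over all genes 11.4% were higher and 22.0% lower. All 4 genes from IMP to GMP were among those higher. IMD4 was higher by 2.11 ± 0.35 (log2, SE, 3 against 2 arrays, adjusted p = 0.00455), or 4.33-fold, and IMD2 by 1.92 ± 0.20 (adjusted p = 0.000775), or 3.77-fold. GUA1 was 2.20-fold higher (adjusted p = 0.0126) and IMD3 1.89-fold (0.0116). APT1 was 3.01-fold (0.00533) and AAH1 2.05-fold higher (0.0126). HPT1, at 0.73 ± 0.26, did not pass (adjusted p = 0.0671) but did with arrays scaled to 1 median (1.05, adjusted p = 0.0077) and after quantile normalization (0.78, adjusted p = 0.0424). In these settings 1138 of 4824 and 999 of 4825 genes were called higher, against 549 of 4824 in the deposited scaling.

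ADE12 was 1.77-fold lower at the higher doses (-0.82 ± 0.21, adjusted p = 0.0212), though its difference was 1.35 (adjusted p = 0.0714) with equal spike-in signal, and its call was lost with arrays scaled to 1 median (-0.50, adjusted p = 0.129). ADE13 (-0.52 ± 0.31, adjusted p = 0.232) and AMD1 (-0.11 ± 0.24, adjusted p = 0.764) did not pass. Without the array of 0.01 mM the members called higher were 3 in place of 6, and GUA1, AAH1 and APT1 no longer passed (adjusted p = 0.0693, 0.056 and 0.0816). IMD3 and GUA1 did not pass without the array of 1 mM (adjusted p = 0.0517 and 0.0559), AAH1 without that of 10 mM (0.0519) and APT1 without that of 0 mM (0.0602), while HPT1 passed without that of 0 mM (0.0494). With no filter on dim probe sets IMD4 and GUA1 did not pass (0.0556 and 0.0566). The call of ADE12 was lost without the array of 0.1, 1 or 10 mM (adjusted p = 0.058, 0.0778 and 0.0678). IMD2 passed the step comparison in each of its 19 alternatives, with adjusted p between 8.74e-05 and 0.0175.

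**Figure D2:**
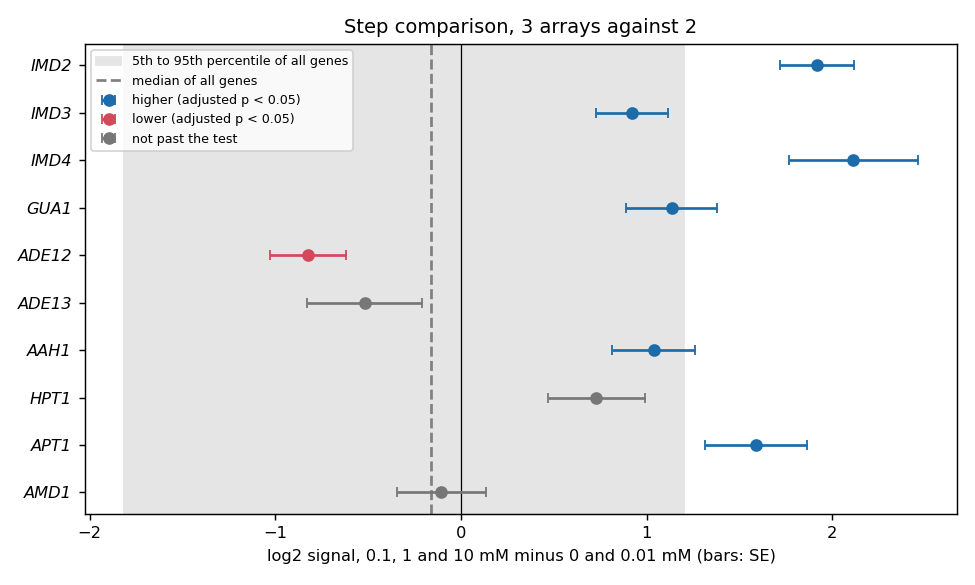
Difference in log2 signal between 0.1, 1 and 10 mM and 0 and 0.01 mM for the 10 genes (points, with SE as bars), coloured by call at an adjusted p of 0.05. The grey band spans the 5th to the 95th percentile of all 4824 genes, from -1.81 to 1.20, and the dashed line is their median of -0.16. IMD2, IMD4 and APT1 lie to the right of the band. The cut between the dose groups was chosen with earlier results of these data known.

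In 7 of the 10 genes all 3 higher doses lay above both lower doses, and in 2, ADE12 and ADE13, all 3 lay below, against 21.9% and 37.3% of all genes. Between neighbouring doses, most of the difference lay in a single interval. Between 0.1 and 0.01 mM 7 of the 10 members were at least 2-fold higher at 0.1 mM, and 2, ADE12 and ADE13, were at least 2-fold lower, against 12.8% and 12.3% of all genes. The remaining member, AMD1, differed by 1.06-fold. Part of this gap was the lower signal of most members at 0.01 mM than at 0 mM. Set against 0 mM instead, IMD2 and IMD4 were more than 2-fold higher at 0.1 mM. IMD3, GUA1, AAH1, HPT1 and APT1 were less than 2-fold higher. ADE13 was more than 2-fold lower and ADE12 less than 2-fold lower. The median difference between 0.1 and 0 mM was 0.72 (log2) for the members and -0.20 for all genes. Between 1 and 0.1 mM and between 10 and 1 mM 0 of the 10 differed 2-fold in either direction, where 1.26% and 1.24% and then 0.498% and 0.808% of all genes were 2-fold higher and lower. Over the whole range 5 of the 10 were at least 2-fold higher at 10 mM than at 0 mM (7.52% of all genes) and 0 at least 2-fold lower (21.2%). GUA1 and AAH1, at 2.05 and 2.004-fold, sat at that threshold. The median member differed by 0.89 (log2), or 1.14 relative to the median of all genes, and this relative value was between 0.87 and 1.70 over other scalings, filters and background levels.

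At 0.01 mM the members were mostly below their level at 0 mM. Of the 10 genes 7 were lower there, a share like the 69.5% of all genes. A single one, IMD4, was at least 2-fold lower and 0 were at least 2-fold higher, against 6.84% and 2.16% of all genes. What set 6 of them (IMD3, IMD4, GUA1, AAH1, HPT1 and APT1) in a smaller class was that they were lower at 0.01 mM and above 0 mM at each of the 3 higher doses, as 12.0% of all genes were. IMD2 was not among them, being 1.20-fold higher at 0.01 mM than at 0 mM, and ADE13, the remaining one, stayed below 0 mM at the higher doses. Both integrity ratios peaked on the 0.01 mM array, and their part in these values was not tested.

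Within an array a single scaling factor cancels in the ratio of a pair of genes. The GMP and AMP branches were therefore also set against each other by such ratios. Relative to 0 mM, the ratio of GUA1 to ADE12 was 0.535, 2.47, 2.98 and 3.11 at 0.01, 0.1, 1 and 10 mM. For IMD2 it was 0.939, 6.68, 6.42 and 6.32, for IMD3 0.694, 2.85, 2.94 and 2.59, and for IMD4 0.363, 4.10, 4.32 and 5.56. All 4 ratios were below 1 at 0.01 mM and above 2 from 0.1 mM on. They share the ADE12 probe set, so they are not independent of each other. ADE12 was itself 1.28-fold higher at 0.01 mM than at 0 mM. The signal of IMD2 was 1.20-fold higher there, so its ratio was below 1 only through ADE12. Against ADE13 the ratio of GUA1 was 3.56 at 0.1 mM and 2.38 and 2.40 at 1 and 10 mM. These ratios show unequal change and not which gene of a pair changed.

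**Figure D3:**
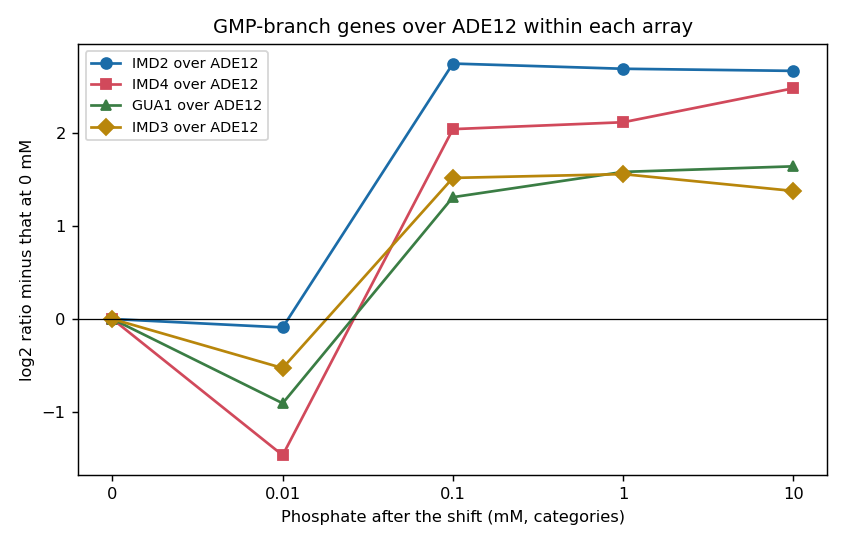
Log2 ratio of IMD2, IMD4, GUA1 and IMD3 to ADE12 within each array, minus that at 0 mM, against phosphate dose in mM as categories (1 array per dose). All 4 lines are below 0 at 0.01 mM, between -0.09 for IMD2 and -1.46 for IMD4, and between 1.31 and 2.74 at 0.1 mM.

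The profiles of several members were close to each other. Centred on each gene's mean over the 5 arrays, those of GUA1 and AAH1 differed by a root mean square of 0.113 (log2), the smallest of the 45 pairs, and those of IMD4 and ADE12 by 1.52, the largest. Among all genes the 5 nearest to AAH1 were REI1, ADO1, GAG1, HRP1 and RRB1, at distances of 0.0499 to 0.0713. ADO1, for adenosine kinase, is also a purine salvage gene, and it gave 776, 603, 1330.4, 1182 and 1564. The 5 nearest to IMD2 were ELO2, STM1, RPS27A, UTR2 and RSR1, at 0.114 to 0.131. RPS27A, a ribosomal protein gene, gave 307, 425, 1237, 1103 and 1328. All profiles come from the same 5 arrays, so these distances only describe likeness on them.

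Other purine genes were described by lists in the same 2 tests, to be read against the shares of all genes. In the deposited scaling these were 11.4% higher and 22.0% lower in the step comparison, and 1.16% rising and 8.13% falling on dose order. Calls of lower genes in these lists depend on the scaling: once spike-in signals are made equal, a setting that calls 3294 of 5024 genes higher in the step comparison, PHM8 was the only gene of them still called lower. On dose order 0 genes of these lists passed in either direction with arrays scaled to 1 median or after quantile normalization, and 0 fell with equal spike-in signal, so each fall on dose order given below was lost there. Under the scalings other than spike-in, each list's counts in the step comparison are those given here unless stated. Such counts need the all-gene counts of the same scaling beside them. With arrays scaled to 1 median, 1138 of 4824 genes were higher and 794 lower. After quantile normalization 999 of 4825 were higher and 903 lower, and with equal hybridisation controls 456 of 4837 were higher and 864 lower. In the deposited scaling 549 of 4824 were higher and 1062 lower.

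Of 8 genes of IMP synthesis 7 were measured (ADE57 was not), and all 7 had a lower signal at 10 mM than at 0 mM in the deposited scaling (6 with arrays scaled to 1 median, 0 with equal spike-in signal), as did 62.2% of all genes. In the step comparison 2 of the 7 were called lower and 0 higher, a share of lower genes near the 22.0% of all genes. ADE17, for the enzyme of the last steps to IMP, gave 113, 81.0, 37.9, 25.8 and 32.7 and fell on dose order (adjusted p = 0.0419). ADE1 gave 318, 216, 118, 96.0 and 126 and was 2.33-fold lower in the step comparison (adjusted p = 0.0104). The list's median difference between 10 and 0 mM was -0.37 (log2) relative to that of all genes, and that of the 4 genes from IMP to GMP was 1.71; the difference between the lists was not tested.

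Of 10 genes that supply one-carbon units to purine synthesis, 5 were lower and 1 higher in the step comparison (2 higher with arrays scaled to 1 median or after quantile normalization). GCV2, of the glycine cleavage complex, gave 248, 146, 17.5, 25.4 and 25.2 and was 8.51-fold lower (adjusted p = 0.000607). MTD1, a cytosolic methylenetetrahydrofolate dehydrogenase gene, gave 174, 97.4, 39.2, 34.8 and 34.4 and fell on dose order too (adjusted p = 0.0395). MIS1, for the mitochondrial C1-tetrahydrofolate synthase, went the other way with 74.7, 39.5, 207, 207 and 209.8, and was 3.83-fold higher in the step comparison (adjusted p = 0.0033255).

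In the list of purine breakdown and other salvage, 12 genes were measured. In the step comparison 4 were lower, 1 was higher and 7 did not pass, against 22.0% lower and 11.4% higher over all genes. On dose order 3 fell, and 0 with arrays scaled to 1 median, after quantile normalization or with equal spike-in signal. The 4 were called lower under 3 of the other scalings too, while 5 were higher with arrays scaled to 1 median and 3 after quantile normalization. PHM8, whose product removes phosphate from nucleotides and which belongs to the phosphate-starvation response, gave 508, 379, 49.0, 29.1 and 39.3. SDT1, for a nucleotidase known to be induced with IMD2 by drugs that deplete guanine nucleotides, gave 399, 234, 66.2, 61.9 and 63.6, and was 4.78-fold lower in the step comparison (adjusted p = 0.0012). In the step comparison IMD2 was called higher and SDT1 lower, and the cause of either difference was not tested. ISN1, for the IMP-specific nucleotidase, gave 246, 185, 38.5, 73.9 and 81.9 and was 3.47-fold lower (adjusted p = 0.00898). GUD1, for guanine deaminase, gave 44.3 and 40.3 at 0 and 0.01 mM and was below background from 0.1 mM on, so it was at least 3.87-fold lower at 10 mM than at 0 mM, and it fell on dose order (adjusted p = 0.0467). ADO1 was the 1 gene of this list called higher, by 1.97-fold (adjusted p = 0.016), a call it lost after quantile normalization.

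Among 9 genes of nucleotide kinases and of phosphoribosyl pyrophosphate synthesis, 1 was higher, 1 lower and 7 did not pass in the step comparison (3 higher with arrays scaled to 1 median, 2 after quantile normalization). PRS1, for a subunit of phosphoribosyl pyrophosphate synthetase, gave 301, 242, 571, 537 and 569, 2.07-fold higher (adjusted p = 0.00861). YNK1, for nucleoside diphosphate kinase, gave 561, 575, 238, 201 and 255, 2.47-fold lower (adjusted p = 0.00391). GUK1, for guanylate kinase, the step after GMP, gave 729, 1082, 1306, 1162 and 1242 and did not pass (adjusted p = 0.16).

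Of 6 measured genes of purine transport and regulation 0 passed either test in the deposited scaling, though 2 were higher in the step comparison with arrays scaled to 1 median and 1 after quantile normalization. PHO2 was not among the genes kept. FCY2, the purine-cytosine permease gene, gave 344, 228, 391, 266 and 277. GCN4, for the activator of amino acid and purine genes, gave 929, 732, 953, 847 and 902. Of 7 histidine synthesis genes, a pathway that yields a purine intermediate as by-product, 4 were lower and 0 higher (2 and 1 with arrays scaled to 1 median, 3 and 1 after quantile normalization, 2 and 0 with equal hybridisation controls). HIS4 gave 583, 571, 266, 209 and 212 and fell on dose order (adjusted p = 0.0448).

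Pyrimidine genes were set beside them as the other nucleotide branch. Of 15, 4 were higher and 1 lower in the step comparison, and 10 did not pass. The number higher was 8 with arrays scaled to 1 median, 5 after quantile normalization and 2 with equal hybridisation controls. Over all genes it was 1138, 999 and 456 in these settings, against 549 in the deposited scaling. URA1, for dihydroorotate dehydrogenase, gave 236, 152, 761, 608 and 819, and was 3.81-fold higher (adjusted p = 0.0022253). FUR1, for uracil phosphoribosyltransferase, the pyrimidine counterpart of APT1, gave 385, 394, 831, 661 and 714 and was 1.88-fold higher (adjusted p = 0.0142). URA10, the minor orotate phosphoribosyltransferase gene, gave 104 and 76.8 at 0 and 0.01 mM, 13.1 at 0.1 mM and was below background at 1 and 10 mM, at least 9.11-fold lower at 10 mM than at 0 mM.

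**Figure D4:**
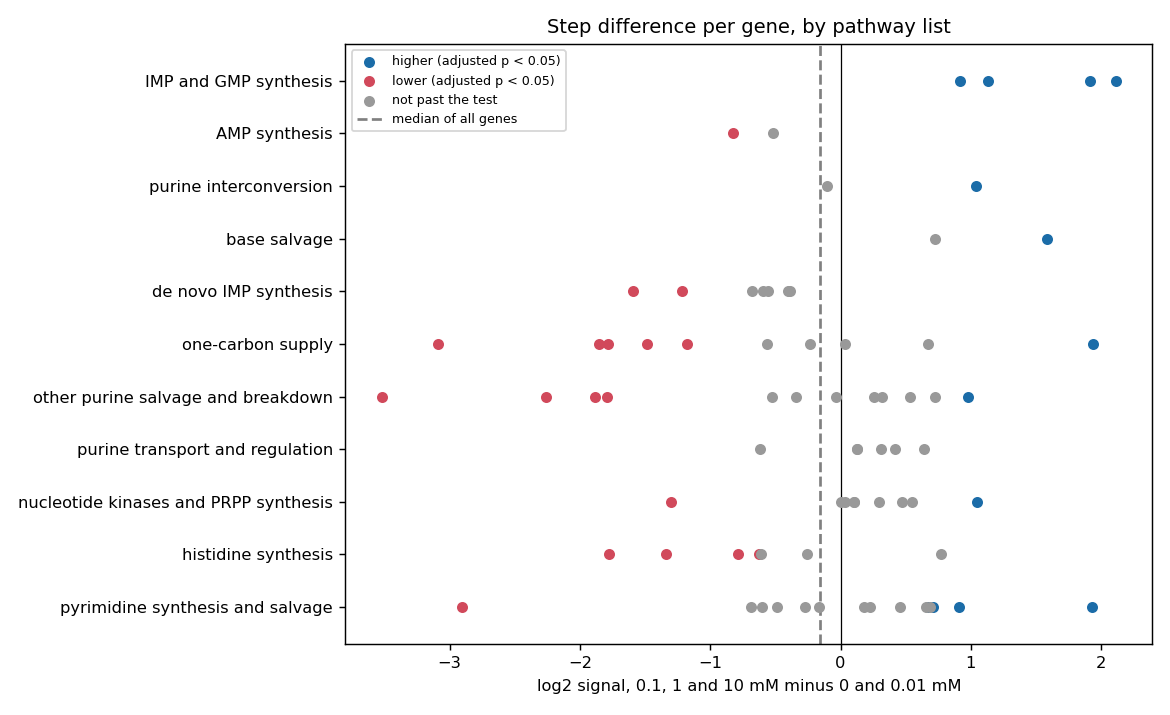
Difference in log2 signal between 0.1, 1 and 10 mM and 0 and 0.01 mM (horizontal axis) for each measured gene of the 11 pathway lists, 1 point per gene, coloured by call at an adjusted p of 0.05, with the median of all genes dashed at -0.16. All 4 genes from IMP to GMP are called higher, while 5 of 10 one-carbon genes and 4 of 12 genes of other salvage and breakdown are called lower. Of all genes 11.4% are called higher and 22.0% lower. The cut between the dose groups was chosen with earlier results of these data known.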

How the data were processed

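Expression was measured in 5 samples, 1 per phosphate dose, each on 1 Affymetrix array. The deposited intensity values are MAS5 signals on a linear scale, per the submitters' processing notes; for MAS5 neither version nor scaling target is given in the sources used here. Of 9335 probe sets 6504 had 1 gene in the array annotation (names brought to RefSeq R64 by gene identifier), 328 had several and 2503 were not listed. Values below the 40th percentile of all values (11.4) were set to it, log2 was taken, probe sets at or above it on at least 2 arrays were kept (5083), and a gene with several took their mean (4824 genes).

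A line on dose order and the step comparison were fitted to all genes with limma 3.58.1 in R 4.3.3, with Benjamini-Hochberg adjustment at 0.05. The labels do not say whether the cultures were grown separately, and p-values measure scatter among 5 arrays. The number of arrays limits the precision.

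The members, the pathway lists, the step comparison and the rules were chosen with earlier results of these data known. Named were all members, the 4 genes of each list with the largest difference between 10 and 0 mM and list genes past a test (the text gives examples), and the 5 genes nearest IMD2 and AAH1. Alternatives were other scalings, background levels, filters, probe set rules, dose scales and arrays left out. Each probe set of IMD2 and IMD4 alone was added after seeing the data. No sequences were used here, so the planned motif search and protein comparison were not made.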

Additional observations from a re-analysis of the deposited data

How the results depend on the processing

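With 1 array per dose, no alternative supplies a replicate error. No paired analysis was possible because each dose has 1 array and the labels give no replicate numbers. The count of members that rose on dose order, 2, became 0 with arrays scaled to 1 median, after quantile normalization, with the background at the 60th percentile and with no filter, 10 with equal spike-in signal, and 0 to 3 with an array left out. Over all genes 0 rose with 1 median, quantile normalization, the 60th percentile background or no filter. With equal spike-in signal 4020 of 5024 genes rose. All-gene counts with an array left out are not given here. The members higher in the step comparison, 6, were 7 with arrays scaled to 1 median, after quantile normalization or with the background level added to each signal. Over all genes 1138, 999 and 610 were higher in these settings, against 549 in the main one. The members higher were 9 with equal spike-in signal, where 3294 of 5024 genes were. They were 4 with no filter, where 240 of 5656 genes were, and 3 to 6 with an array left out. The 1 lower was 0 with arrays scaled to 1 median, equal hybridisation controls or equal spike-in signal, and 0 to 1 with an array left out. Members at least 2-fold higher at 10 mM, 5, were 10 with equal spike-in signal, where 4436 of 5024 genes were at least 2-fold higher. They were 3 with 1 mM in place of 10 mM. The relative median, 1.14, was 1.70 with equal spike-in signal. Equal spike-in signal, which raises all genes at the higher doses, turned the slopes of ADE12 (0.59), ADE13 (0.75) and AMD1 (0.56) and their step differences (1.35, 1.66 and 1.62). The slope of ADE13 was 0.0533 with arrays scaled to 1 median, 0.0125 after quantile normalization and -0.211 to 0.0536 with an array left out. That of AMD1 was 0.0465 and 0.0513 under the first 2 of these settings, and its step difference was 0.22 under each and -0.266 to 0.0304 with an array left out. AMD1 was not kept with the background at the 60th percentile. Over all genes, those that rose and fell were 56 and 392, and 0 and 1 with no filter. IMD2 on probe set 3 alone had a slope of 0.50 (adjusted p = 0.0643). The cause of these changes was not tested.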
